A study of Sus scrofa with 2 samples.

Results

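The integrin and laminin genes were taken as all gene symbols of the deposited matrices that name an integrin alpha or beta chain or a laminin alpha, beta or gamma chain. Of 31908 genes, 31 met this rule: 14 integrin alpha genes, 8 integrin beta genes and 9 laminin genes. ITGBL1, ITGB1BP1 and ITGB1BP2 were left out because they encode no integrin chain. A further 4 genes that carry only an identifier in the matrices are named ITGA5, ITGA7, LAMA5 and LAMB4 in an Ensembl name table. They are given beside the members and are not counted among them. LAMA2, ITGAX and ITGAD matched no symbol and were not analysed here.

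Nuclei from the frozen free wall of the left ventricle of Bama miniature pigs were sequenced, and 1 library was wild type (WT). The other came from tissue of triple-transgenic pigs (TG), which carry the I148M variant of the lipid droplet protein PNPLA3, a dominant-negative GIPR (the receptor for the gut hormone GIP) and human IAPP, the islet amyloid peptide. Both groups were on a high-fat, high-sucrose diet for 12 months. The promoters of the transgenes and the number of pigs behind a library were not given in the sources used here.

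Laminins are trimers of an alpha, a beta and a gamma chain. They polymerise into the sheet of the basement membrane, which wraps every cardiomyocyte, capillary, smooth muscle cell and Schwann cell. Integrins are receptors made of an alpha and a beta chain that span the cell membrane and tie the matrix to the actin cytoskeleton. The alpha chain largely sets the ligand: ITGA3, ITGA6 and ITGA7 bind laminins, ITGA1, ITGA2, ITGA10 and ITGA11 bind collagens, and ITGAV, ITGA5 and ITGA8 bind ligands with an RGD motif such as fibronectin. A group of integrins with ITGB2 or ITGB7 is used by leukocytes. In cardiomyocytes ITGA7 with ITGB1 is the main laminin receptor, at the costameres that anchor the sarcomeres.

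The WT library held 127126477 unique molecular identifiers (UMIs, counted RNA molecules) in 18251 barcodes, and the TG library 89324966 in 15000 barcodes. After filtering, 16725 WT and 14939 TG nuclei were kept, with medians of 5442 and 3937 UMIs. The lowest barcode held 500 UMIs in WT and 1972 in TG, and 81 barcodes occurred in both libraries. Clusters were named from marker genes as 9 classes, all "-like" because they rest on transcripts alone, and these held from 116 to 6794 nuclei per library. The members took no part in the clustering. Each genotype had 1 library, so no difference could be checked against replicates or tested. Genotype and library cannot be told apart, so each difference below is between these libraries. Levels are the class's UMIs of a gene scaled to 1e6 nuclear-encoded UMIs (CPM), with exact 95% Poisson intervals in parentheses, which cover counting error only, as do the 95% intervals of ratios. They are not divided by gene length, so levels are compared between classes and libraries and never between genes.

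The 13 cardiomyocyte markers were also found in the 8 other classes, and more so in TG. Their median level there was 13.4% to 34.9% of the cardiomyocyte level in WT and 41.0% to 86.6% in TG, and between 8 and 12 of the 13 were higher in TG in each class. RYR2, the calcium release channel of the heart, measured 21110 CPM in WT cardiomyocyte-like nuclei and 158 CPM in macrophage-like nuclei of WT, against 528 CPM in those of TG. The part of this RNA in the differences outside cardiomyocytes was not tested. One alternative took a library-wide profile off each class other than cardiomyocytes, and its values are given where they turn a difference around. The share taken off was 16.5% to 47.1% in WT and 35.6% to 100% in TG over these classes, and larger in TG in each. Counts that fell below 0 were set to 0, so such a turn cannot be read as a measured reversal. The libraries also filled different clusters of some classes. Clusters 0 and 1 held most cardiomyocyte-like nuclei of WT and clusters 2 and 3 most of those of TG. Fibroblast-like nuclei lay in clusters 4 and 16 in WT and in cluster 6 in TG, and smooth muscle-like nuclei in cluster 21 in WT and in cluster 29 in TG. Ratios within clusters that hold at least 20 nuclei of each library are given beside class ratios whose call or direction they change. For fibroblast-like nuclei these were cluster 6, with 28 WT and 1896 TG nuclei, and cluster 16, with 557 and 48. They held 20.7% of the WT nuclei of the class and left out cluster 4, with 2241 WT nuclei.

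Each member had its own pattern over the classes, and that pattern was largely the same in both libraries. All 31 members had at least 20 UMIs in some class and 30 reached 20 CPM. The exception was LAMC3, a gamma chain, which stayed at or below 3.56 CPM throughout. LAMB4, a beta chain outside the member list, stayed at or below 5.63 CPM. Of the 30 members, 27 had their highest level in the same class in WT and in TG. Fibroblast-like nuclei were highest in both libraries for LAMB1, LAMC1, ITGA11 and ITGB3, among others. T or NK lymphocyte-like nuclei were highest for ITGA4, ITGAL, ITGB2, ITGB7 and LAMB3. Vascular endothelial-like nuclei led for LAMA1, LAMA3, ITGA6 and ITGA10, and lymphatic endothelial-like nuclei for LAMA4, ITGA2, ITGA9 and ITGB4. Smooth muscle-like nuclei were highest for LAMB2, ITGA3, ITGA8 and ITGB1, macrophage-like nuclei for ITGAM and ITGB5, Schwann or neural-like nuclei for ITGA2B and ITGB8, and cardiomyocyte-like nuclei for ITGB6. The highest class differed for ITGAV, ITGA1 and ITGAE. Pericyte-like nuclei were the highest class of no member.

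**Figure D1:**
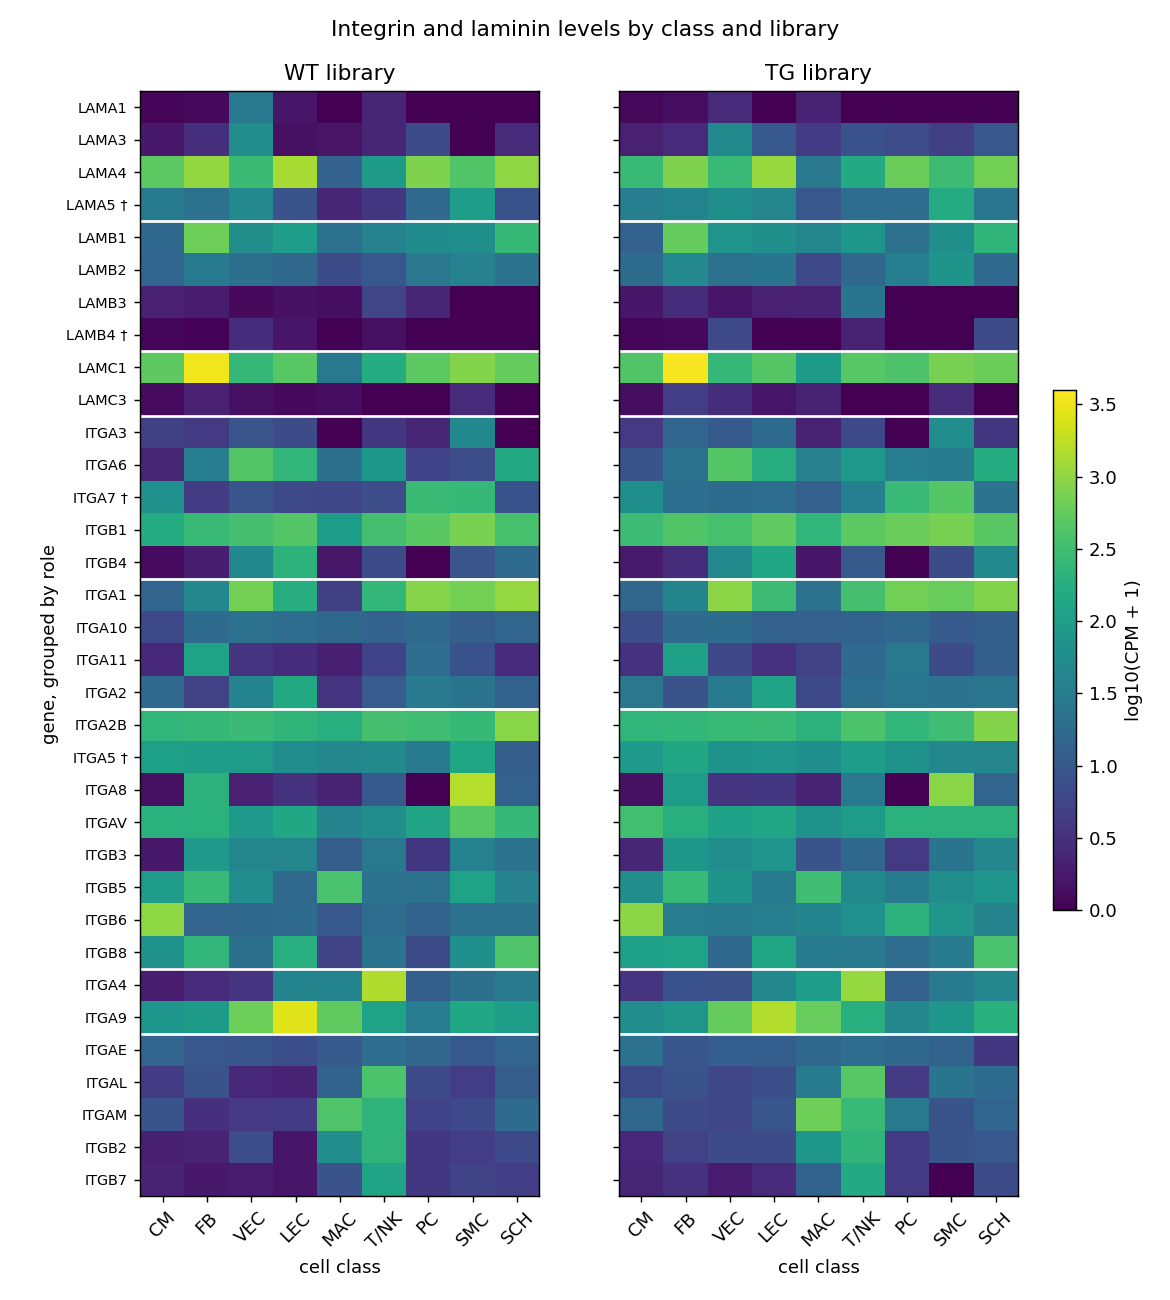
Levels of 30 of the 31 members and of 4 further genes (†) in 9 cell classes of the WT library (left) and the TG library (right), as log10(CPM + 1), with genes in rows grouped by role and white lines between the groups. CM is cardiomyocyte-like, FB fibroblast-like, VEC and LEC vascular and lymphatic endothelial-like, MAC macrophage-like, T/NK lymphocyte-like, PC pericyte-like, SMC smooth muscle-like and SCH Schwann or neural-like, and ITGB6 is highest in CM, ITGA6 in VEC and ITGA9 in LEC in both panels.

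A member counted as higher or lower in TG at a ratio of at least 1.5 whose 95% interval left out 1, with at least 20 UMIs over both libraries. In cardiomyocyte-like nuclei 13 of 30 measured members were higher and 3 lower, while 25.6% of all measured genes were higher and 8.85% lower. The median log2 ratio of the members was 0.33 there, against 0.08 for all genes. Fibroblast-like nuclei had 10 of 30 higher and 3 lower (17% and 9.01% of all genes). In vascular endothelial-like nuclei 5 of 29 were higher and 1 lower (12.3% and 8.09%). Lymphatic endothelial-like nuclei had 7 of 22 higher and 3 lower (12.4% and 8.0%).

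Among macrophage-like nuclei 12 of 22 members were higher and 0 lower (17.1% and 6.81% of all genes), with a median log2 ratio of 0.84 against 0.06 for all genes. The T or NK lymphocyte-like nuclei had 11 of 27 higher and 1 lower (19.9% and 10.2%), and a median of 0.56 against 0.06. Pericyte-like nuclei had 2 of 13 higher and 1 lower (11% and 10.3%), close to the background. Smooth muscle-like nuclei had 3 of 18 higher and 5 lower (14.9% and 9.06%), with a median of -0.13 against 0.12. Schwann or neural-like nuclei had 3 of 15 higher and 0 lower (13.3% and 9.19%). Over all 206 measured pairs of a class and a member, 66 were higher, 17 lower and 123 neither. Of the 66 higher pairs, 47 lay in classes where the member stayed under 25% of its highest level in both libraries. In 29 of those 47, the summed markers of the class where the member is highest in WT were also at least 1.5 times higher in TG. The same held for 10 of the 19 higher pairs in classes with at least 25% of the highest level. Of the 17 lower pairs, 10 lay in classes with at least 25% of the highest level.

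**Figure D2:**
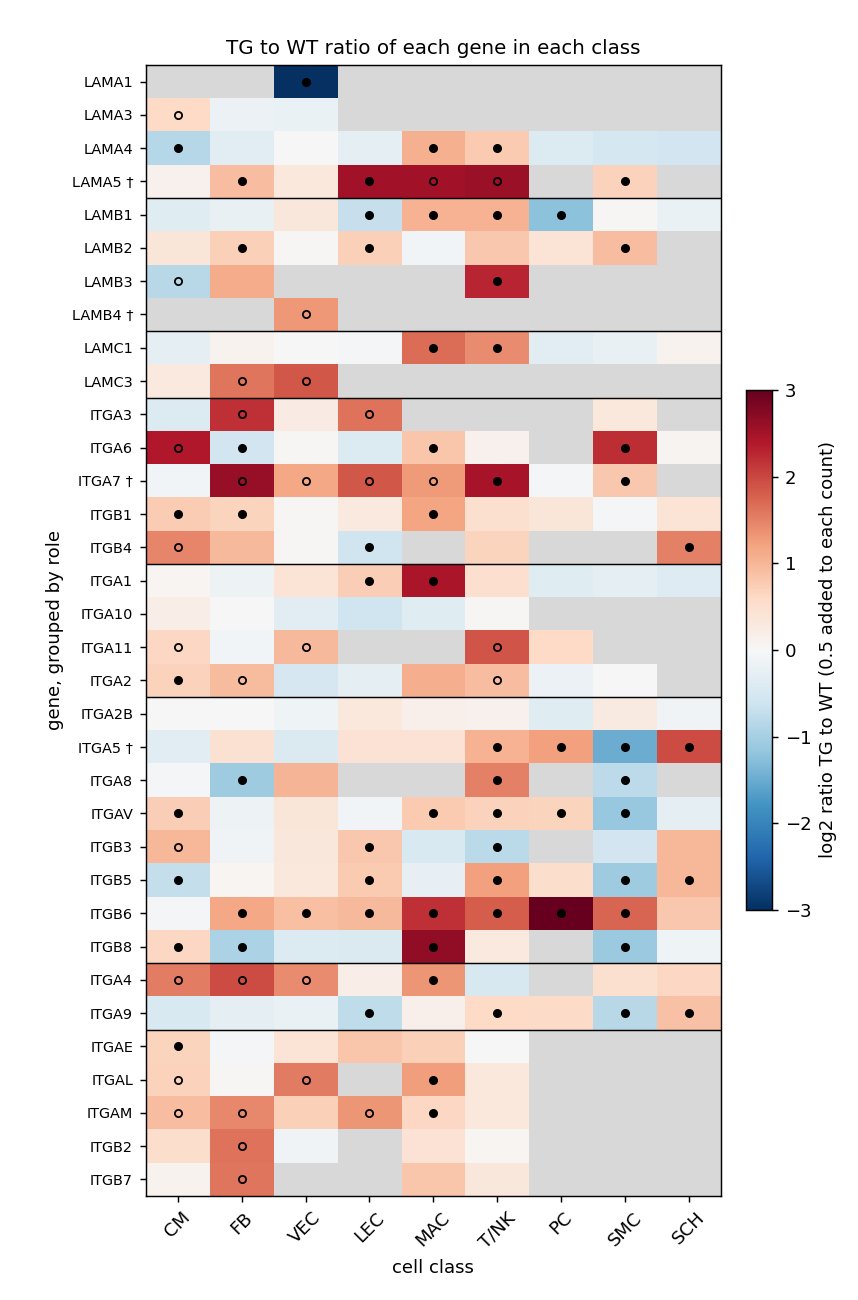
The log2 ratio of TG to WT for the same genes (rows, grouped by role, † for genes beside the members) in each class (columns, named as CM to SCH), with 0.5 added to each count and colours clipped at 3 either way. Grey cells hold fewer than 20 UMIs, dots mark ratios that count as higher or lower (open where the level stays under 20 CPM in both libraries), and the macrophage-like and T/NK columns are mostly red while LAMA1 is the darkest blue.

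The laminin alpha chains, which carry the domains that integrins bind, divided the classes among them. LAMA4, the alpha chain of endothelial, fat and muscle basement membranes, lies on chromosome 1 (78071990 to 78224564, Sscrofa11.1) and was found in all classes but macrophages at 91.1 CPM or more. It was at 1336 CPM in WT (1303 to 1369) and 1109 CPM in TG (1060 to 1160) in lymphatic endothelial-like nuclei, its highest class. Fibroblast-like nuclei had 1021 (WT) and 808 CPM (TG), and Schwann or neural-like nuclei 1005 and 678 CPM. Pericyte-like nuclei stood at 812 and 608 CPM and smooth muscle-like nuclei at 417 and 289.9 CPM. None of these ratios reached 1.5 either way, although all of them lay below 1. As a class, vascular endothelial-like nuclei had the same level in both libraries within counting error. They held 279.9 CPM in WT (265 to 296) and 278 CPM in TG (267 to 289). Their clusters differed in opposite directions. Less LAMA4 was found in TG nuclei of cluster 11, with 238 (WT, 218 to 260) and 111 CPM (TG, 97.9 to 125). More was found in cluster 5, with 325 (WT, 297 to 354) and 403 CPM (TG, 384 to 423). Cluster 13 likewise had 161 (WT, 124 to 205) and 226 CPM (TG, 208 to 246).

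Compared as whole classes, those rich in LAMA4 differed most in cardiomyocyte-like nuclei. LAMA4 measured 493 CPM there in WT (488 to 498) and 273 CPM in TG (269 to 278), which is 1.803 times lower in TG (1.77 to 1.84). The difference held cluster by cluster: the 4 clusters with at least 20 WT nuclei lay between 406 and 521 CPM, and the 3 with at least 20 TG nuclei between 269 and 276 CPM. The ratio within clusters was 1.73 (1.59 to 1.88). Clusters of 1 library are not replicates, and clusters 2 and 3 held only 103 and 34 WT nuclei. In macrophage-like nuclei LAMA4 was at 12.7 (WT) and 26.4 CPM (TG), 2.07 times higher in TG (1.37 to 3.09). T or NK lymphocyte-like nuclei had 91.1 (WT) and 158 CPM (TG), 1.73 times higher (1.43 to 2.10). Both levels are far below those of the classes rich in LAMA4, and the lymphocyte difference turned to lower in TG once the library-wide profile was taken off.

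LAMA1, the alpha chain of the embryonic basement membrane, was found mainly in vascular endothelial-like nuclei of WT. It lies on chromosome 6 (100332843 to 100468457) and was at 27.9 CPM in WT (23.2 to 33.2), from 125 UMIs, and at 1.77 CPM in TG (1.01 to 2.87), from 16 UMIs. This is 15.8 times lower in TG (9.34 to 28.5). In every other class it stayed at or below 1.42 CPM. Its UMIs were not spread over the vascular clusters. Cluster 26, with 91 WT nuclei and fewer than 20 TG nuclei, held 231 CPM (188 to 281) and 101 of the 125 UMIs. Cluster 13 held 49.6 CPM in WT (30.3 to 76.5) and 6.02 CPM in TG (3.37 to 9.94), and clusters 5 and 11 at most 1.91 CPM. Within the 3 clusters that both libraries fill, LAMA1 was 8.18 times lower in TG (4.17 to 16.1).

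LAMA3, the alpha chain of epithelial anchoring laminins, shared that class and not that pattern. It was at 58.2 CPM in WT (51.3 to 65.7) and 50.9 CPM in TG (46.3 to 55.8) in vascular endothelial-like nuclei, and at or below 8.66 CPM in all other classes. Its highest cluster was 13, with 352 CPM in WT (296 to 415) and 119.7 CPM in TG (107 to 134). Cluster 11 had 48.1 (WT) and 26.1 CPM (TG), cluster 5 had 10.97 and 24.1 CPM, and cluster 26 had 2.29 CPM in WT. LAMA3 was thus lower in TG in clusters 11 and 13 and higher in cluster 5. The ratio pooled over clusters 5, 11 and 13 was 1.92 times lower in TG (1.64 to 2.25) and does not describe cluster 5. The class as a whole, where cluster 13 held 127 WT and 760 TG nuclei, differed by less than 1.5 times. LAMA5, an alpha chain of mature vessels outside the member list, was highest in smooth muscle-like nuclei, at 101 (WT) and 163 CPM (TG), 1.61 times higher (1.20 to 2.14). In cluster 29 it was at 132 CPM in WT (94.7 to 179) and 169 CPM in TG (135 to 209), with intervals that overlap. It was at 48.8 and 60.8 CPM in vascular endothelial-like nuclei and at 30.1 and 33.1 CPM in cardiomyocyte-like nuclei. Fibroblast-like nuclei had 21.6 (WT) and 41.2 CPM (TG), 1.91 times higher (1.59 to 2.29). In lymphatic endothelial-like nuclei LAMA5 went from 7.34 CPM in WT (5.08 to 10.3) to 42.1 CPM in TG (33.0 to 53.0), a ratio of 5.74 (3.77 to 8.90).

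**Figure D3:**
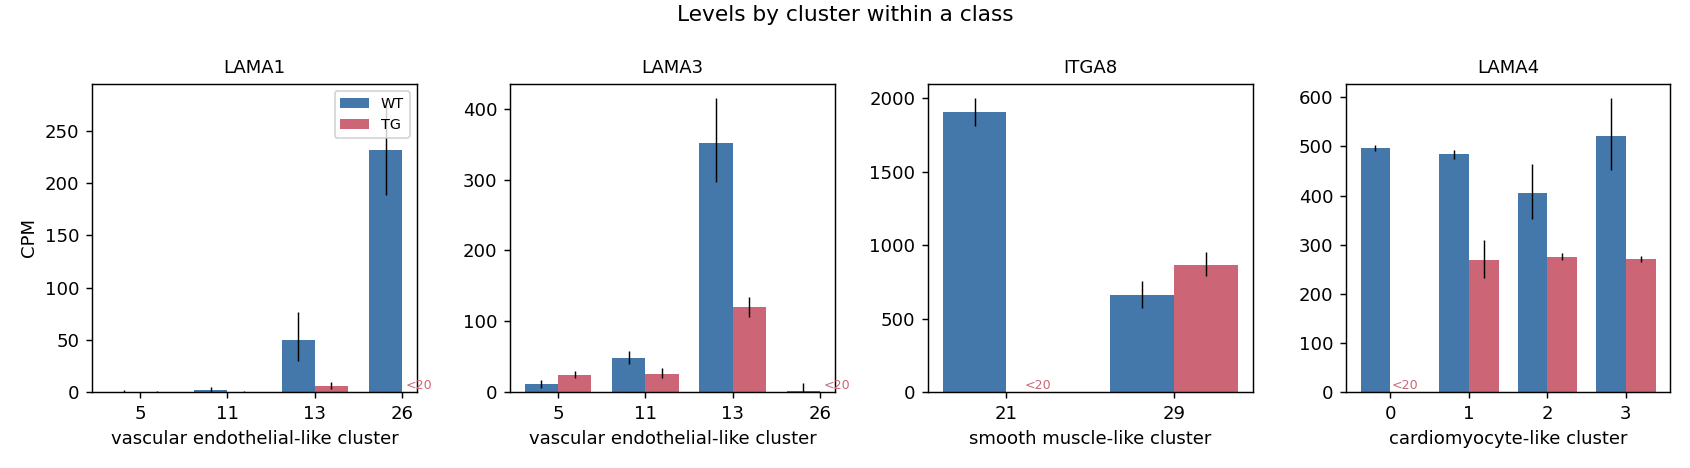
CPM of LAMA1 and LAMA3 in the vascular endothelial-like clusters, of ITGA8 in the smooth muscle-like clusters and of LAMA4 in the cardiomyocyte-like clusters, for WT (blue) and TG (red). Error bars are exact 95% Poisson intervals and "<20" marks clusters with fewer than 20 nuclei of that library. LAMA1 peaks in cluster 26, at 231 CPM in WT, and LAMA4 lies at 269 to 276 CPM in each TG bar of the cardiomyocyte panel, below all WT bars.

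Among the gamma and beta chains, LAMC1 and LAMB1 were highest in fibroblast-like nuclei. LAMC1, the gamma chain of nearly all laminins, lies on chromosome 9 (124283668 to 124405967). It was at 3384 CPM in WT (3351 to 3417) and 3620 CPM in TG (3571 to 3670) in fibroblast-like nuclei. Smooth muscle-like nuclei followed at 850.1 (WT) and 729 CPM (TG). The other classes, cardiomyocytes included, stayed under 25% of the fibroblast level. LAMC1 counted as different in leukocytes alone. It was at 27.9 (WT) and 89.6 CPM (TG) in macrophage-like nuclei (3.22 times higher, 2.53 to 4.08). In T or NK lymphocyte-like nuclei it was at 169.8 (WT) and 456 CPM (TG), 2.69 times higher (2.36 to 3.06). Fibroblast markers moved alongside: the 15 markers summed to 542 (WT) and 1427 CPM (TG) in the lymphocytes, where 11 of the 14 measured were higher. In the macrophages the markers summed to 286 and 428 CPM, and 4 of the 13 measured were higher. Their part in these differences was not tested.

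LAMB1, the beta chain that pairs with LAMC1 in most tissues, was at 644 (WT) and 556 CPM (TG) in fibroblast-like nuclei and at 261 and 225 CPM in Schwann or neural-like nuclei. Neither class differed by 1.5 times. It was lower in TG in lymphatic endothelial-like nuclei, at 99.7 (WT) and 61.2 CPM (TG), 1.63 times (1.32 to 2.03). In pericyte-like nuclei it was at 53.0 (WT) and 21.5 CPM (TG), 2.47 times lower with a wide interval (1.09 to 6.55) from 37 and 7 UMIs. With mixed clusters counted in, the pericyte difference turned to higher in TG (log2 ratio 0.59). As with LAMC1, LAMB1 was higher in TG in macrophage-like nuclei (21.1 and 43.5 CPM, 2.06 times, 1.498 to 2.81) and in T or NK lymphocyte-like nuclei (38.2 and 79.1 CPM, 2.07 times, 1.55 to 2.78).

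LAMB2, the beta chain of synaptic and mature muscle laminins, was low and spread over many classes. In smooth muscle-like nuclei it was at 38.8 (WT) and 72.9 CPM (TG), 1.88 times higher (1.19 to 2.96). Within cluster 29, which holds nuclei of both libraries, the ratio was 0.977 (0.586 to 1.63). Fibroblast-like nuclei had 29.5 (WT) and 48.5 CPM (TG), 1.65 times higher (1.40 to 1.93), and lymphatic endothelial-like nuclei 14.9 and 24.2 CPM, 1.63 times higher (1.08 to 2.42). Vascular endothelial-like nuclei (20.5 and 21.0 CPM), pericyte-like nuclei (25.8 and 33.8 CPM) and Schwann or neural-like nuclei (22.6 and 16.9 CPM) did not reach the fold. LAMB3, a beta chain of anchoring laminins, reached 20 CPM only in T or NK lymphocyte-like nuclei of TG, with 24.0 CPM from 37 UMIs against 4.72 CPM from 10 UMIs in WT (5.09 times higher, 2.48 to 11.5).

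Of the chains that receive laminin, ITGB1 reached 20 CPM in both libraries in all 9 classes, ITGA6 in 6, ITGB4 in 2 and ITGA3 in 1. ITGB1, the beta chain of most matrix receptors, lies on chromosome 10 (56078393 to 56130608). Its highest class was smooth muscle-like nuclei, at 757 CPM in WT (707 to 809) and 737 CPM in TG (666 to 813). Its lowest level was in macrophage-like nuclei in both libraries, at 104 (WT) and 236 CPM (TG). In cardiomyocyte-like nuclei it was at 170.4 CPM in WT (167 to 173) and 291 CPM in TG (286 to 296), 1.71 times higher in TG (1.67 to 1.75). The 4 clusters with at least 20 WT nuclei lay between 132 and 179 CPM and the 3 with at least 20 TG nuclei between 282 and 334 CPM. They are not replicates, and the ratio within clusters was 1.88 (1.69 to 2.09). Fibroblast-like nuclei had 267 (WT) and 421 CPM (TG), 1.58 times higher (1.495 to 1.66), and macrophage-like nuclei were 2.26 times higher (1.98 to 2.58).

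The remaining classes had more even levels of ITGB1. Vascular endothelial-like nuclei were at 348 (WT) and 358 CPM (TG), the same within counting error. Lymphatic endothelial-like nuclei stood at 431 and 532 CPM, T or NK lymphocyte-like nuclei at 349.6 and 485 CPM, pericyte-like nuclei at 470 and 605 CPM, and Schwann or neural-like nuclei at 356 and 469.9 CPM. All of these were above 1 in ratio and under the fold of 1.5.

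ITGA6, which pairs with ITGB1 or ITGB4 to bind laminins, was an endothelial gene. It was at 429 CPM in WT (409.8 to 448) and 441 CPM in TG (427 to 455) in vascular endothelial-like nuclei, at 235 and 176 CPM in lymphatic endothelial-like nuclei and at 158 and 166 CPM in Schwann or neural-like nuclei. In fibroblast-like nuclei it was lower in TG, 34.2 (WT) and 22.8 CPM (TG), 1.504 times (1.23 to 1.85). That difference turned around with mixed clusters counted in. Within the clusters both libraries fill the TG to WT ratio was 1.54 (0.563 to 4.21), and its interval held 1. Cluster 16 had 24.2 (WT) and 23.9 CPM (TG). Cluster 6 had 0 UMIs of ITGA6 in its 28 WT nuclei and 22.8 CPM in TG. Macrophage-like nuclei had 20.4 (WT) and 36.2 CPM (TG), 1.78 times higher (1.26 to 2.48), which turned to a log2 ratio of -0.27 with the library-wide profile taken off. ITGA6 in smooth muscle-like nuclei was at 6.17 and 29.9 CPM from 7 and 16 UMIs, 4.85 times higher (1.89 to 13.95).

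ITGB4, the beta chain of hemidesmosomes, was at 209 CPM in WT (196 to 223) and 137 CPM in TG (120.5 to 156) in lymphatic endothelial-like nuclei, 1.52 times lower in TG (1.32 to 1.76). Vascular endothelial-like nuclei had 47.5 (WT) and 48.9 CPM (TG). Schwann or neural-like nuclei had 17.4 CPM from 10 UMIs in WT and 50.7 CPM from 18 UMIs in TG, 2.91 times higher (1.28 to 7.07). Lymphatic markers summed to 292 (WT) and 526 CPM (TG) in those nuclei and vascular endothelial markers to 289 and 1601 CPM. Their part in this difference was not tested. ITGA3 reached 20 CPM only in smooth muscle-like nuclei, at 46.7 CPM in WT (35.0 to 61.1) and 58.0 CPM in TG (39.4 to 82.3). ITGA7, named only by the Ensembl table, was at 65.2 (WT) and 61.2 CPM (TG) in cardiomyocyte-like nuclei. It was higher in pericyte-like nuclei, at 288 and 277 CPM, and in smooth muscle-like nuclei, at 255 (WT) and 443 CPM (TG), 1.74 times higher (1.46 to 2.08). That class difference followed the clusters: cluster 21 had 156 CPM in WT, and cluster 29 had 515 CPM in WT (438 to 601) and 459 CPM in TG (402 to 522). T or NK lymphocyte-like nuclei had 6.13 and 35.0 CPM of it, 5.71 times higher (3.08 to 11.4).

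**Figure D4:**
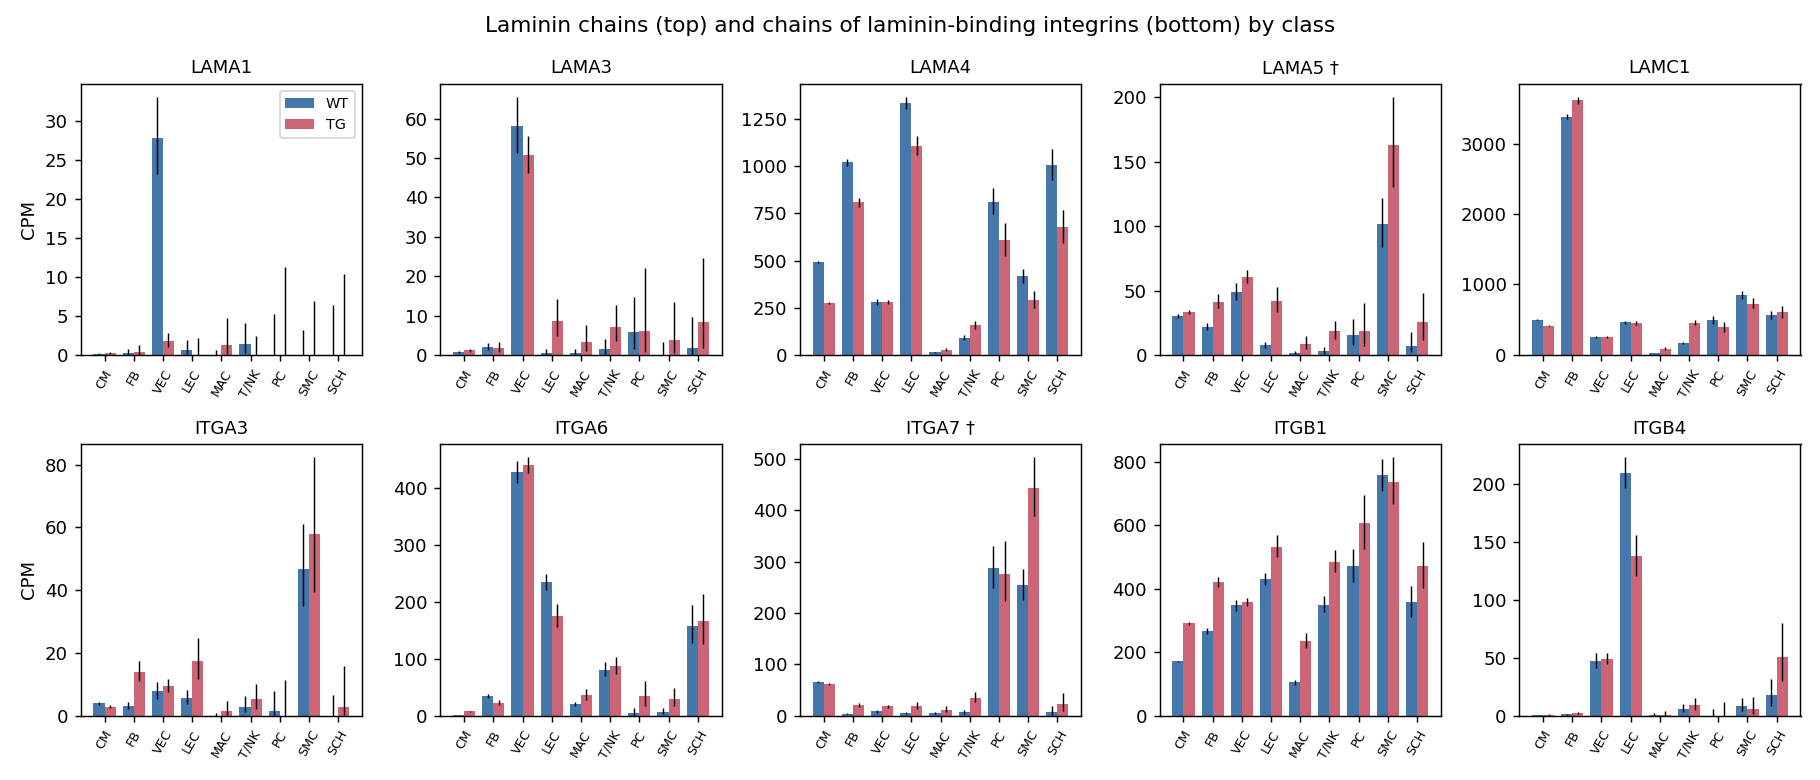
CPM by class of the laminin chains LAMA1, LAMA3, LAMA4, LAMA5 (†) and LAMC1 in the top row and of the laminin-binding integrin chains ITGA3, ITGA6, ITGA7 (†), ITGB1 and ITGB4 in the bottom row, with class names shortened as CM to SCH. Blue bars are WT, red bars TG and error bars exact 95% Poisson intervals; LAMA4 is at 493 (WT) and 273 CPM (TG) in cardiomyocyte-like nuclei, while ITGB1 there is at 170.4 and 291 CPM.

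Laminin sources were then set beside the classes that hold the chains of their receptors, with 20 CPM in both libraries as the level for a source or a receptor. The pairs used came from general knowledge of which integrins bind which alpha chain. LAMA4 reached that level in 8 classes, and its receptor chain ITGB1 in all 9. ITGA6, the alpha chain of that receptor, did so in 6 classes, and 5 of those also held LAMA4: fibroblast-like, vascular and lymphatic endothelial-like, T or NK lymphocyte-like and Schwann or neural-like nuclei. Cardiomyocyte-like, pericyte-like and smooth muscle-like nuclei held LAMA4 without ITGA6 at 20 CPM in both libraries, and these 3 classes were the ones with ITGA7. In cardiomyocyte-like nuclei the source and the receptor differed in opposite directions, LAMA4 1.803 times lower in TG and ITGB1 1.71 times higher.

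LAMA3 reached 20 CPM in both libraries in vascular endothelial-like nuclei alone, which also held ITGA6, ITGB1 and ITGB4. It did not overlap with ITGA3, whose one class was smooth muscle. LAMA5 did so in 4 classes: with ITGA3 and ITGB1 in smooth muscle-like nuclei, with ITGA6, ITGB1 and ITGB4 in vascular endothelial-like nuclei, with ITGA6 and ITGB1 in fibroblast-like nuclei and with ITGB1 in cardiomyocyte-like nuclei. LAMA1 met the level in 0 classes because of its low TG value, and in WT its one source, vascular endothelium, held ITGA6 at 429 CPM and ITGA7 at 8.02 CPM. Cluster 26, which held most of the LAMA1 UMIs, had less ITGA6, 68.7 CPM in WT (46.4 to 98.1). Clusters 5, 11 and 13 had 457, 519 and 240 CPM of ITGA6 in WT. These are levels of transcripts in nuclei and say nothing on protein at the membrane.

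The collagen-binding alpha chains differed in their highest class. ITGA1 was at 1083 (WT) and 830 CPM (TG) in Schwann or neural-like nuclei, 893 and 691 CPM in pericyte-like nuclei and 712 and 579.8 CPM in smooth muscle-like nuclei. Vascular endothelial-like nuclei had 711 (WT) and 943 CPM (TG), which made them its highest class in TG. Their pooled ratio within clusters was 1.05 (1.00 to 1.09), but the clusters differed. Cluster 13 had 656.6 (WT, 579.9 to 740.6) and 936.5 CPM (TG, 898.9 to 975.3). Cluster 11 had 390 and 461 CPM, and cluster 5 had 1288 and 1222 CPM. In T or NK lymphocyte-like nuclei ITGA1 was at 240.1 (WT) and 341 CPM (TG). ITGA1 counted as higher in TG in lymphatic endothelial-like nuclei, at 175 and 293 CPM (1.68 times, 1.5 to 1.88), and in macrophage-like nuclei, at 3.82 and 21.1 CPM (5.51 times, 3.08 to 10.1). Within smooth muscle cluster 29 it was 1.63 times higher in TG (1.31 to 2.03), against 0.815 for the class.

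ITGA11, a fibroblast receptor for fibrillar collagen, was at 121 CPM in WT (115 to 128) and 114 CPM in TG (106 to 123) in fibroblast-like nuclei, a difference within counting error. ITGA2 was highest in lymphatic endothelial-like nuclei, at 153 (WT) and 127 CPM (TG), and vascular endothelial-like nuclei had 40.8 and 28.9 CPM. In cardiomyocyte-like nuclei it was at 15.9 (WT) and 25.5 CPM (TG), 1.60 times higher (1.48 to 1.74). ITGA10 stayed low, with its highest level of 21.8 (WT) and 17.7 CPM (TG) in vascular endothelial-like nuclei.

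Among chains of RGD-binding integrins, ITGB6 stood out as a cardiomyocyte transcript. ITGB6, best known as the epithelial partner of ITGAV that activates TGF-beta, lies on chromosome 15 (67041516 to 67175409). It overlaps LOC110256934 and LOC110256935 there, and the part of those genes in its counts was not tested. ITGB6 was at 961 CPM in WT (954 to 968) and 930 CPM in TG (921 to 939) in cardiomyocyte-like nuclei. In WT no other class exceeded 22.6 CPM. In TG it was higher in 7 of the 8 other classes: 31.1 CPM against 13.9 CPM in WT in fibroblast-like, 28.7 against 15.2 in vascular endothelial-like, 34.1 against 17.3 in lymphatic endothelial-like and 40.8 against 8.92 in macrophage-like nuclei. Lymphocyte-like nuclei of the T or NK class had 65.5 CPM in TG and 18.4 in WT, smooth muscle-like nuclei 74.8 and 22.0, and pericyte-like nuclei 206 and 12.9 CPM. The ratios ran from 1.89 (1.45 to 2.51) in vascular endothelium to 16.0 (7.93 to 36.4) in pericytes. Within fibroblast clusters the ratio of ITGB6 was 0.937 (0.489 to 1.796). With the library-wide profile taken off, ITGB6 was floored at 0 in vascular endothelial-like nuclei of both libraries. Its log2 ratio of -1.01 there was set by the class totals alone and is no measured ratio. Cardiomyocyte markers were higher in TG in these classes as well, and in pericytes their median was 86.6% of the cardiomyocyte level in TG and 30.6% in WT. With nuclei that hold cardiomyocyte transcripts kept, the log2 ratio of ITGB6 was -0.20 in vascular endothelial-like and -0.85 in smooth muscle-like nuclei.

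ITGAV, which pairs with ITGB1, ITGB3, ITGB5, ITGB6 or ITGB8, lies on chromosome 15 too (91604666 to 91711843) and was found in every class. In cardiomyocyte-like nuclei it was at 196 CPM in WT (193 to 199) and 325 CPM in TG (320.0 to 330.4), 1.66 times higher (1.62 to 1.70). Within clusters that both libraries fill the ratio was 1.16 (1.04 to 1.29). Cluster 3, mostly TG, was at 364 CPM in TG and 259 CPM in its 34 WT nuclei. In smooth muscle-like nuclei ITGAV was lower in TG, at 458 (WT) and 208 CPM (TG), 2.21 times (1.79 to 2.73), also within cluster 29 (1.65 times, 1.26 to 2.16). It was higher in TG in macrophage-like (39.7 and 68.5 CPM, 1.73 times), T or NK lymphocyte-like (59.0 and 95.4 CPM, 1.62 times) and pericyte-like nuclei (125 and 197 CPM, 1.58 times). These 3 differences turned around with the library-wide profile taken off. The share taken off was 35.6% in TG and 20.5% in WT for macrophage-like nuclei and 57.7% and 16.5% for the lymphocytes. For pericyte-like nuclei it was 100% in TG and 41.6% in WT. Fibroblast-like nuclei had 201 and 182 CPM, vascular endothelial-like 87.8 and 112 CPM, lymphatic endothelial-like 144 and 135 CPM, and Schwann or neural-like nuclei 247 and 205 CPM.

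ITGA8, the receptor chain for nephronectin and a mark of contractile mesenchyme, was at 1562 CPM in WT (1490 to 1636) and 903 CPM in TG (825 to 988) in smooth muscle-like nuclei, 1.73 times lower in TG (1.56 to 1.92). This followed the clusters. Cluster 21, with 181 WT nuclei and fewer than 20 TG nuclei, was at 1902 CPM in WT (1809 to 1998). Cluster 29 was at 660 CPM in its 54 WT nuclei (573 to 757) and 867 CPM in its 150 TG nuclei (787 to 952), so that within it ITGA8 was higher in TG. In fibroblast-like nuclei ITGA8 was at 205 CPM in WT (197 to 214) and 97.4 CPM in TG (89.4 to 106), 2.11 times lower (1.92 to 2.32), and 2.03 times lower within clusters (1.32 to 3.14). The lymphocytes had 9.44 (WT) and 27.2 CPM (TG), 2.89 times higher (1.66 to 5.19).

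ITGB8, another TGF-beta activating partner of ITGAV, was lower in TG in the same fibroblast-like nuclei, at 236 CPM in WT (228 to 245) and 121 CPM in TG (113 to 131). This is 1.95 times lower (1.79 to 2.12), and 2.74 times within clusters (1.89 to 3.98). The latter rests on 28 WT nuclei in cluster 6 and 48 TG nuclei in cluster 16. Its highest class was Schwann or neural-like nuclei, at 403 and 366 CPM, and lymphatic endothelial-like nuclei had 177 and 132 CPM. In cardiomyocyte-like nuclei it was at 69.3 (WT) and 107 CPM (TG), 1.54 times higher (1.48 to 1.60). The pooled TG to WT ratio within clusters was 0.777 (0.667 to 0.905) and does not describe clusters 1 and 2. Cluster 3 had 211 CPM in its 34 WT nuclei and 120.6 CPM in TG. Cluster 1 had 60.1 (WT) and 58.7 CPM (TG), and cluster 2 had 89.0 and 86.1 CPM. ITGB8 was lower in smooth muscle-like nuclei (62.5 and 28.1 CPM, 2.23 times, 1.27 to 4.19), where the TG to WT ratio within cluster 29 was 0.617 (0.257 to 1.48) and its interval held 1. It was higher in macrophage-like nuclei (4.55 and 29.0 CPM, 6.37 times, 3.81 to 10.9).

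ITGB5, the vitronectin receptor chain, was shared by macrophages and fibroblasts. It was at 368 (WT) and 312 CPM (TG) in macrophage-like nuclei and at 265 and 274 CPM in fibroblast-like nuclei. In cardiomyocyte-like nuclei it was at 94.9 CPM in WT (92.7 to 97.1) and 58.2 CPM in TG (56.0 to 60.4), 1.63 times lower (1.56 to 1.70), and in smooth muscle-like nuclei at 123 and 58.0 CPM, 2.13 times lower (1.43 to 3.25). Within clusters these ratios, written TG to WT, were 0.686 (0.565 to 0.833) and 0.980 (0.534 to 1.799), under the fold in both classes. ITGB5 was higher in TG at low levels in lymphatic endothelial-like (16.8 and 28.9 CPM, 1.71 times), T or NK lymphocyte-like (22.2 and 51.9 CPM, 2.34 times) and Schwann or neural-like nuclei (38.2 and 76.0 CPM, 1.99 times).

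ITGB3, which joins ITGAV or ITGA2B, was at 84.5 (WT) and 79.1 CPM (TG) in fibroblast-like nuclei and at 45.2 and 57.7 CPM in vascular endothelial-like nuclei. Lymphatic endothelial-like nuclei had 41.9 CPM in WT (36.2 to 48.2) and 73.3 CPM in TG (61.1 to 87.2), 1.75 times higher (1.39 to 2.20). Among T or NK lymphocyte-like nuclei it was at 26.4 (WT) and 14.9 CPM (TG), 1.77 times lower (1.07 to 3.02), from 56 and 23 UMIs. Smooth muscle-like nuclei (37.0 and 24.3 CPM) and Schwann or neural-like nuclei (22.6 and 45.02 CPM) did not meet the rule. Within fibroblast clusters that both libraries fill ITGB3 was 1.72 times higher in TG (1.19 to 2.48).

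ITGA2B, known as the platelet chain, was measured in all 9 classes. It lies on chromosome 12 (18860739 to 18877381) and measured 183.5 to 923 CPM in WT and 204 to 853 CPM in TG over the classes, with 0 of 9 classes higher or lower. Cardiomyocyte-like nuclei had 233.1 (WT) and 232.5 CPM (TG), fibroblast-like nuclei 247 and 244 CPM, vascular endothelial-like 287 and 262 CPM and lymphatic endothelial-like 224 and 280.5 CPM. T or NK lymphocyte-like nuclei were at 341 and 374 CPM, pericyte-like at 311 and 239.6 CPM and smooth muscle-like at 259.9 and 314 CPM. Schwann or neural-like nuclei stood apart at 923 CPM in WT (846 to 1005) and 853 CPM in TG (759 to 954). ITGA5, the fibronectin receptor chain named from the Ensembl table, was likewise found in all classes. It was lower in TG in smooth muscle-like nuclei, at 129 and 44.9 CPM (2.87 times, 1.85 to 4.62), where cluster 21 had 169 CPM in WT and cluster 29 had 22.5 (WT) and 39.8 CPM (TG).

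ITGA9 and ITGA4 form a subfamily with ligands such as VCAM1 and tenascin. ITGA9, a chain needed for lymphatic valves, lies on chromosome 13 (22298497 to 22655717) and was at 2613 CPM in WT (2567 to 2660) and 1534 CPM in TG (1476 to 1593) in lymphatic endothelial-like nuclei. This is 1.70 times lower in TG (1.63 to 1.78), in a class that was 1 cluster in both libraries. Lymphatic markers summed to 7513 CPM there in WT and 8439 CPM in TG. Vascular endothelial-like nuclei had 642 and 561 CPM and macrophage-like nuclei 530.1 and 584 CPM. ITGA9 was higher in TG in Schwann or neural-like nuclei, at 104 and 191 CPM (1.84 times, 1.28 to 2.64), and in T or NK lymphocyte-like nuclei, at 117 and 177 CPM (1.51 times, 1.27 to 1.81), where the log2 ratio was -0.051 with the library-wide profile taken off. Vascular endothelial markers in the Schwann or neural-like nuclei summed to 289 (WT) and 1601 CPM (TG), and lymphatic markers to 292 and 526 CPM. Their part in the ITGA9 difference was not tested. In smooth muscle-like nuclei ITGA9 was lower, at 144 and 80.4 CPM (1.79 times, 1.27 to 2.56), and higher within cluster 29 (2.13 times, 1.09 to 4.17).

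ITGA4, the homing chain of lymphocytes, was at 1486 CPM in WT (1435 to 1539) and 1066 CPM in TG (1015 to 1119) in T or NK lymphocyte-like nuclei, under the fold of 1.5. In macrophage-like nuclei it was at 40.8 CPM in WT (35.6 to 46.5) and 101 CPM in TG (86.1 to 119), 2.49 times higher (2.01 to 3.07). T or NK markers summed to 69.7 CPM in those macrophages in WT and 137 CPM in TG, and their part in this difference was not tested.

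Of the leukocyte integrins, ITGAM, the myeloid chain of the complement receptor, was at 408 CPM in WT (391 to 425) and 629.7 CPM in TG (590.4 to 671) in macrophage-like nuclei. This is 1.54 times higher in TG (1.43 to 1.67). It was at 219 and 274 CPM in T or NK lymphocyte-like nuclei. ITGAL, its lymphoid counterpart, was at 377 (WT) and 467 CPM (TG) in T or NK lymphocyte-like nuclei, and in macrophage-like nuclei it was at 12.9 and 31.0 CPM, 2.40 times higher in TG (1.62 to 3.51). ITGB2, the beta chain of both, was at 216 (WT) and 225 CPM (TG) in T or NK lymphocyte-like nuclei, and macrophage-like nuclei had 59.4 and 80.4 CPM, in neither case past the fold. ITGB7, the gut homing beta chain, was at 125 and 157 CPM in T or NK lymphocyte-like nuclei. ITGAE was low in all classes and highest in cardiomyocyte-like nuclei of TG, at 22.1 CPM against 14.02 CPM in WT (1.58 times, 1.45 to 1.72), and its ratio within clusters was 1.25 (0.899 to 1.73).

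The other genes of the pathway gave a background to these values. Of 29 measured adaptors and kinases of integrins, 2 were higher and 8 lower in TG cardiomyocyte-like nuclei (25.6% and 8.85% of all genes), with a median log2 ratio of -0.33 against 0.08 for all genes. The 3 lowest at 20 CPM were PTK2B, a kinase of the focal adhesion family, at 66.5 (WT) and 28.4 CPM (TG), 2.34 times, ITGB1BP2, the muscle chaperone melusin that binds ITGB1, at 52.6 and 29.6 CPM (1.78 times), and ZYX at 51.3 and 30.7 CPM (1.67 times). All 3 were also lower within clusters. In fibroblast-like nuclei 3 of 28 were higher and 2 lower (17% and 9.01% of all genes), with TNS3 at 127 and 52.6 CPM. In vascular endothelial-like nuclei 1 of 28 was higher, FERMT1 at 68.9 (WT) and 167 CPM (TG), and 6 were lower (12.3% and 8.09% of all genes). VCL (478 and 190.2 CPM) and KANK1 (61.7 and 29.3 CPM) were lower in the class but did not reach the fold within clusters, while PTK2B (87.6 and 39.0 CPM) did.

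Basement membrane partners, which link the laminin sheet to collagen IV, had 3 of 13 higher and 3 lower in cardiomyocyte-like nuclei, 2 of 12 and 3 in fibroblast-like and 1 of 12 and 2 in vascular endothelial-like nuclei. Over all genes the higher and lower shares were 25.6% and 8.85%, 17% and 9.01%, and 12.3% and 8.09% in these classes. In fibroblast-like nuclei NID1, the bridge between laminin and collagen IV, was at 1594 (WT) and 886 CPM (TG), 1.799 times lower, NID2 at 136 and 79.8 CPM and COL4A1 at 929 and 608 CPM. The proteoglycan HSPG2 was higher there, at 646 and 1006 CPM, as was COL18A1, at 49.9 and 78.4 CPM, whose ratio within clusters was 1.55 (0.874 to 2.74). HSPG2 was lower in cardiomyocyte-like nuclei (266 and 174 CPM), although under the fold within clusters (TG to WT ratio 0.901), and COL4A6 was at 21.5 and 13.3 CPM. In vascular endothelial-like nuclei NID2 was at 142 and 228 CPM, NTN4 at 56.8 and 26.2 CPM and COL15A1 at 73.3 and 44.0 CPM, of which only COL15A1 kept the fold within clusters. In macrophage-like and in T or NK lymphocyte-like nuclei 7 of 9 measured partners each were higher and 0 lower, where 17.1% and 19.9% of all genes were higher. The summed level of fibroblast markers was also greater in TG in both classes (286 and 428 CPM in macrophages, 542 and 1427 CPM in lymphocytes). Of those measured, 4 of 13 counted as higher in macrophages and 11 of 14 in lymphocytes. Cardiomyocyte markers were higher as well (19% and 48.3% of the cardiomyocyte level in macrophages, 21.9% and 46.5% in lymphocytes). The part of both sets of markers in these counts was not tested.

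Among 17 laminin receptors other than integrins, chiefly the dystroglycan complex of muscle, 0 were higher and 2 lower in cardiomyocyte-like nuclei (25.6% and 8.85% of all genes). The one at 20 CPM was BCAM, at 20.2 and 12.0 CPM, just under the fold within clusters (TG to WT ratio 0.668, 0.453 to 0.986). In fibroblast-like nuclei 4 were higher and 1 lower (17% and 9.01% of all genes), with SGCA (20.5 and 38.8 CPM), DMD (524 and 977 CPM) and DTNA (27.8 and 51.4 CPM) higher and SNTB1 lower (115 and 62.2 CPM). Within clusters only DMD of these 4 kept the fold, and its level in TG was 10.2% of that in its highest class. The part of cardiomyocyte RNA in these values was not tested. In vascular endothelial-like nuclei 3 were higher and 2 lower (12.3% and 8.09% of all genes), with DTNA (22.5 and 45.5 CPM) and SNTB1 (13.6 and 24.7 CPM) higher and SGCD lower (152 and 92.9 CPM), the last with a TG to WT ratio of 0.940 within clusters (0.840 to 1.05).

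Of 24 listed other ligands of the integrins, 8 of 21 measured were higher and 2 lower in cardiomyocyte-like nuclei, 6 of 19 and 6 in fibroblast-like and 2 of 18 and 3 in vascular endothelial-like nuclei. The shares over all genes were again 25.6% and 8.85%, 17% and 9.01%, and 12.3% and 8.09%. NPNT, the ligand of ITGA8, was at 41.9 (WT) and 107 CPM (TG) in cardiomyocyte-like nuclei (2.56 times higher), with a ratio of 1.00 within clusters. In fibroblast-like nuclei TNC (2.40 and 38.04 CPM) and FN1 (247 and 689 CPM) were higher in the class, while within clusters FN1 was under the fold and TNC was 1.72 times lower in TG. POSTN (171 and 14.8 CPM) and COL1A1 (633 and 361 CPM) were lower both ways, and FBN1 (2801 and 1475 CPM) was lower in the class with a TG to WT ratio of 1.21 within clusters (1.15 to 1.28). Vascular endothelial-like nuclei had more VCAM1, the ligand of ITGA4 and ITGA9, in TG (70.4 and 197 CPM, 2.80 times), and 3.67 times more within clusters. THBS1 (151 and 29.7 CPM) and FN1 (171 and 36.4 CPM) were lower there in the class, and within clusters their intervals held 1. FBN1 (607 and 349 CPM) was lower in the class and under the fold within clusters (TG to WT ratio 0.756, 0.716 to 0.798).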

How the data were processed

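Single-nucleus RNA was counted in 1 WT and 1 TG library. The values are deposited counts of UMIs per gene and nucleus. Per the submitters' processing notes, the authors used Sscrofa11.1, Cell Ranger 3.1.0 and Seurat 3.1.1, while the matrices name Cell Ranger 5.0.0 per the file headers, a difference that was not resolved. Gene coordinates come from a RefSeq table of the same assembly. The counting's use of strand was not given in the sources used here, and 12 members overlap another gene of that table, ITGB6, ITGAV and LAMA1 among them.

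Nuclei with at least 500 genes and at most 5% mitochondrial UMIs were kept, and both libraries were clustered together without batch correction (scanpy 1.11.5, leidenalg 0.10.2: 2000 variable genes without the members, 30 components, 15 neighbours, resolution 1). Clusters were named by the mean log2 level of marker genes over the 25th percentile of clusters. Clusters with strong markers of an unrelated class (mean log2 fold of 2.5, or 1.5 for cardiomyocyte-like clusters) or at least 50% of the cardiomyocyte level of RYR2 and RBM20 were set aside as mixed. So were nuclei outside cardiomyocytes with at least 0.6% of UMIs and 3 UMIs from those genes. Cluster 10 was divided at resolution 0.5 to part pericytes from smooth muscle. All thresholds of this naming were chosen with the clusters in view. No doublet caller was run. Members and gene lists were chosen with earlier results of these data known. The counts of members include 1 whose values are not reported here.

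Counts were summed per class and library and scaled to CPM of nuclear-encoded UMIs (13 mitochondrial genes left out). Levels carry exact Poisson intervals and ratios conditional binomial intervals (scipy 1.17.1), all at 95%. Log2 ratios add 0.5 to each count. Ratios within clusters are Mantel-Haenszel ratios. The code was tested on simulated data. Members were named where they reach 20 CPM and 25% of their highest class, or 20 CPM and count as higher or lower. Partner genes were the 3 highest and 3 lowest per list at 20 CPM. Alternatives changed scaling (TMM from edgeR 4.0.16 in R 4.3.3), weighting, depth, clustering, mixed clusters and free RNA, and 2 of them were chosen after seeing the data: keeping nuclei with cardiomyocyte transcripts, and ratios within clusters.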

Additional observations from a re-analysis of the deposited data

How the results depend on the processing

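Of 59 named differences of a member in a class, 15 kept their direction and call under all 11 alternatives computed for single genes: LAMA4, ITGB1 and ITGA2 in cardiomyocyte-like nuclei, ITGA8 and ITGB8 in fibroblast-like, LAMA1 in vascular endothelial-like, ITGA9 and ITGB3 in lymphatic endothelial-like, ITGA4, ITGB1 and LAMB1 in macrophage-like, LAMB1 and LAMC1 in T or NK lymphocyte-like, ITGAV in smooth muscle-like and ITGA9 in Schwann or neural-like nuclei. Some alternatives could not change some of these pairs. The lymphatic endothelial-like, macrophage-like, T or NK lymphocyte-like and Schwann or neural-like classes were 1 cluster each, so their ratio within clusters is the class ratio. In cardiomyocyte-like nuclei no profile was taken off and no nuclei were set aside, so those alternatives left the class as it was. No mixed cluster had cardiomyocytes, T or NK lymphocytes, smooth muscle or Schwann or neural cells as its closest class. Counting mixed clusters in therefore left those classes as they were. With 1 library per genotype no library could be left out. No paired analysis was possible because each genotype had 1 library. The cause of the changes below was not tested.

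The 66 higher pairs became 30 when nuclei were thinned to 1000 UMIs, 30 with the library-wide profile taken off and 36 at a fold of 2. The 17 lower pairs became 48 with the profile off and 6 at a fold of 2. In cardiomyocyte-like nuclei the higher count went from 13 to 6 when thinned, 3 at a fold of 2 and 6 within clusters, and the lower count from 3 to 0 at a fold of 2 and 9 within clusters. In fibroblast-like nuclei the higher count went from 10 to 5 when thinned, 3 with the profile off and 4 within clusters, and the lower count from 3 to 8 with the profile off, 1 at a fold of 2 and 5 within clusters. In vascular endothelial-like nuclei the higher count went from 5 to 1 when thinned, 3 with nuclei of at least 2000 UMIs and 0 with the profile off. The lower count went from 1 to 7 with the profile off, and to 2 with nuclei weighted equally, thinned, with cardiomyocyte transcripts kept and within clusters. The highest class changed for 4 members when thinned, and for 1 member each under TMM factors, without the most abundant gene, with equal weights, with mixed clusters, at resolution 2 and with the profile off.

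Log2 ratios that changed sign with the profile off were -2.35 for LAMA4, -0.051 for ITGA9 and -6.51 for ITGAV in T or NK lymphocyte-like nuclei, -0.63 for LAMB2, -9.40 for ITGAV and -1.01 for ITGB6 in vascular endothelial-like nuclei, -0.27 for ITGA6 and -3.27 for ITGAV in macrophage-like nuclei, and -5.05 for ITGAV in pericyte-like nuclei. Within clusters they were 1.09 for ITGA9, -0.033 for LAMB2, 0.70 for ITGA1 and 0.39 for ITGA8 in smooth muscle-like nuclei, 0.62 for ITGA6, -0.094 for ITGB6 and 0.78 for ITGB3 in fibroblast-like nuclei, and -0.36 for ITGB8 in cardiomyocyte-like nuclei. With mixed clusters they were 0.78 for ITGA6 in fibroblast-like and 0.59 for LAMB1 in pericyte-like nuclei. With the members among the variable genes ITGAV was at -0.15 in pericyte-like nuclei. With cardiomyocyte transcripts kept ITGB6 was at -0.20 in vascular endothelial-like and -0.85 in smooth muscle-like nuclei, and thinned at -0.24 in lymphatic endothelial-like nuclei. Values with the profile off rest on a larger share taken off in TG than in WT and on counts floored at 0. The -1.01 of ITGB6 comes from counts of 0 in both libraries and is no measured ratio. Pairs with a count of 0 or under 20 UMIs in the shared clusters have no value within clusters. Depth limits the pericyte-like, smooth muscle-like and Schwann or neural-like classes, where 18, 13 and 16 of the 31 members had under 20 UMIs.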

Other observations

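The classes too small for a comparison also held members. A dendritic-like cluster of 120 WT and 26 TG nuclei had ITGB7, the gut homing beta chain, at 254.5 CPM in WT (217 to 296) and 257 CPM in TG (172 to 369). ITGA4, the alpha chain it pairs with, was at 495 CPM in WT (443 to 552) and 682 CPM in TG (538 to 852), and ITGAM at 353 and 460.3 CPM. ITGAE, the other partner of ITGB7, was at 65.1 CPM in WT (47.1 to 87.7) and 17.7 CPM in TG (2.14 to 64.0), from 43 and 2 UMIs.

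An adipocyte-like cluster of 27 TG nuclei held LAMC1 at 1499 CPM (1302 to 1717), LAMA4 at 799.7 CPM (658 to 963) and LAMB1 at 504 CPM (393 to 637), which are the 3 chains of a laminin trimer. The same nuclei had ITGA7 at 432 CPM (329.9 to 556) and ITGB8 at 382 CPM (286 to 499.5). Fewer than 20 WT nuclei lay in this cluster, so it has no WT value.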
